A study of Mus musculus with 24 samples.

Results

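The 10 genes described here encode ligands, receptors and processing machinery of the interleukin 1 (IL-1) family and of the inflammasome. They are Il1a, Il1b, Il1rn, Il18, Il1rap, Nlrp3, Pycard, Casp1, Casp4 and Gsdmd, taken as a fixed list from the 25160 genes of the count table, each with the transcript of highest mean count. All 10 were in the table, and 9 of them passed the filter on low counts and were tested. Pycard did not pass. The cells were RAW264.7, a mouse macrophage line, in stable derivatives with a doxycycline-inducible Nur77 or GFP construct. The gene of Nur77, an orphan nuclear receptor, is Nr4a1, and GFP is a fluorescent protein used as the control. Cells of both lines were given 50 ng/ml doxycycline for 18 h and then 500 ng/ml lipopolysaccharide (LPS), the cell wall component of Gram-negative bacteria that Toll-like receptor 4 senses. The groups were the Nur77 line at 0, 1 and 5 h of LPS and the GFP line at 0, 1 and 5 h of LPS, with 4 libraries each and 24 in all. Each construct was present in a single stable line, so an effect of the construct and a difference between the lines themselves cannot be told apart. All cells had received doxycycline, and no library without it was analysed.

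IL-1 alpha (Il1a) and IL-1 beta (Il1b) are alarm cytokines that bind the same receptor. That receptor signals only after it pairs with the accessory protein encoded by Il1rap. The receptor antagonist (Il1rn) occupies the receptor without engaging the accessory protein. IL-1 beta and IL-18 are made as inactive precursors. An inflammasome is a sensor such as NLRP3 joined through the adaptor ASC (Pycard) to caspase-1 (Casp1), which cuts both precursors and also gasdermin D (Gsdmd), whose fragment opens pores in the plasma membrane. Caspase-11, the product of mouse Casp4, binds cytosolic LPS and cuts gasdermin D directly. In macrophages, LPS is the classical priming signal that raises the transcripts of the precursors and of NLRP3. RAW264.7 cells are known for lacking ASC.

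Il1a and Il1b lie on the minus strand of chromosome 2 in GRCm38, at chr2:129299609-129310186 and chr2:129364569-129371164, with 54.38 kb between them. Il1rn lies elsewhere on the same chromosome, at chr2:24336860-24351491 on the plus strand. Casp1 (chr9:5298517-5307281) and Casp4 (chr9:5308849-5336791) are neighbours with 1.57 kb between them. Il18 is at chr9:50554700-50581841, Il1rap at chr16:26581509-26730128, Nlrp3 at chr11:59541569-59566955, Gsdmd at chr15:75862144-75867408 and Pycard at chr7:127991373-127993867.

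The sequences just before the starts are shown for Il1a, Il1b, Il1rn and Nlrp3, which are 4 of the members called between the lines. They come from RefSeq on GRCm38.p6, run 5′ to 3′ in the direction of the gene, and hold the 250 bases before a start site. Capitals mark matches to the searched motifs. Il1rn is shown for its upstream start and for a start inside the gene, near which the transcript used here begins.
Il1a, chr2:129309973-129310222, minus strand: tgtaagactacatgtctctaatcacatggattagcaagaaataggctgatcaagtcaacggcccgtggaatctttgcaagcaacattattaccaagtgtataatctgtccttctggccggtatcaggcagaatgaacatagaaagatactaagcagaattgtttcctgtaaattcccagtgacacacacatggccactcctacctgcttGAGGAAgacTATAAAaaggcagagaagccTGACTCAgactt
Il1b, chr2:129371140-129371389, minus strand: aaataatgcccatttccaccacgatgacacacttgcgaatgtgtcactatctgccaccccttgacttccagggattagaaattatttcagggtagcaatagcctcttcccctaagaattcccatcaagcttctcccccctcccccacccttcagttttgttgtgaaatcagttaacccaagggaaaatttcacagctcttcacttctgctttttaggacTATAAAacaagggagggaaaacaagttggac
Il1rn upstream start, chr2:24336610-24336859, plus strand: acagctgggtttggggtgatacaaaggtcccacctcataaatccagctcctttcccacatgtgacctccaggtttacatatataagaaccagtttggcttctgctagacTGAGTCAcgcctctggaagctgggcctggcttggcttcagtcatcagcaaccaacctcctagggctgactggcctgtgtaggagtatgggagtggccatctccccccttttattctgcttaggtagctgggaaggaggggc
Il1rn internal start, chr2:24345041-24345290, plus strand: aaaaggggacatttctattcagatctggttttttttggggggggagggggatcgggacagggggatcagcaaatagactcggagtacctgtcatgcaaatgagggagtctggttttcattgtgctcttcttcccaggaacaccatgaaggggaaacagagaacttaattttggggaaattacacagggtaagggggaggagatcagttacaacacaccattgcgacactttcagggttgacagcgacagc
Nlrp3, chr11:59541319-59541568, plus strand: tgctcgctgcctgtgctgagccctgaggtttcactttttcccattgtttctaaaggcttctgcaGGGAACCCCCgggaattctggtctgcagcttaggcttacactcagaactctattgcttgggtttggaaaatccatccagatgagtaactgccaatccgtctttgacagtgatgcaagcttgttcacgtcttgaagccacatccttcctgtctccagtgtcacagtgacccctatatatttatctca

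Motifs were searched on both strands, over 250 bases before to 50 bases after each start. They included the monomer site of the Nr4a receptors, NBRE, as AAAGGTCA. The site of the AP-1 factors, which are induced by many stimuli, was searched as TGANTCA. For the myeloid factor C/EBP the letters were TTGCNNAA, and for the macrophage and B cell factor PU.1 the core was GAGGAA. The box bound by the general transcription machinery, TATA, was searched as TATAAA. A pair of cores of the interferon-stimulated response element (ISRE core pair) was searched as TTTCNNTTTC, and the NF-kappa B site by its kappa B consensus. None of these matches overlapped a match of another motif in the members' windows. Windows were present for 9 of the 10 members, 13 windows in all, and Gsdmd is named only. Il1a held the PU.1 core, TATA and AP-1 within its last 50 bases, with first bases 41, 32 and 12 bases before the start. Il1b held TATA 31 bases before the start. Il1rn held AP-1 141 bases before its upstream start and none of the motifs in the sequence shown for the internal start. Nlrp3 held a kappa B match on the opposite strand 186 bases before its upstream start. NBRE matched in none of the 13 windows, against 1.51% of all 32851 windows of the same length. The shares of all windows were 7.81% for AP-1, 10.8% for C/EBP, 28.3% for the PU.1 core, 13.6% for TATA, 3.44% for the ISRE core pair and 4.51% for kappa B. In the windows not shown, Casp4 held overlapping kappa B matches that began 93 and 92 bases before its start, Casp1 a PU.1 core on the opposite strand 108 bases before it, and Il18 a TATA match on the opposite strand 175 bases before it. The Il1rn window of the other internal start held a TATA match on the opposite strand 14 bases after the start, and the second Nlrp3 window held PU.1 cores 220, 129 and 36 bases before its start, the middle one on the opposite strand. Il1rap held the ISRE core pair on the opposite strand 20 bases after its start. Pycard held C/EBP and the PU.1 core on the opposite strand, 142 and 42 bases before its start. The second Casp4 window overlaps the first and held the same kappa B matches.

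Sums over all genes were 8137306 to 29279140 counts per library. Values below are CPM, counts scaled to a common library size and adjusted for library composition, as mean ± SD of 4 libraries unless another number is given. Genes were tested with edgeR's quasi-likelihood test over 12213 genes, called at a Benjamini-Hochberg adjusted p under 0.05, and log2 fold changes are given ± SE. Of the macrophage markers 9 of 10 were tested, and only Mertk was near 0. Their summed level was 6516 to 6781 CPM in the Nur77 line and 9848 to 10020 CPM in the GFP line at 0 h, 6315 to 7871 and 10450 to 11380 CPM in the Nur77 and GFP lines at 1 h, and 9904 to 10510 and 12370 to 13040 CPM in the Nur77 and GFP lines at 5 h. Its part in the results was not tested. Markers of lymphocytes, epithelium, fibroblasts and neutrophils each summed to at most 4.64 CPM in any library, with Cd3e and Epcam at 0. Nr4a1 stood at 2.74, 3.71, 3.27 and 3.44 CPM in the Nur77 line and 3.12, 2.53, 3.24 and 3.39 CPM in the GFP line at 0 h, and did not pass the test (adjusted p = 0.885). At 1 h Nr4a1 had 42.4, 9.29, 40.0 and 39.8 CPM in the Nur77 line, against 52.0, 63.2, 65.1 and 66.8 CPM in the GFP line (log2 -0.91 ± 0.251, adjusted p = 0.00481). Without replicate 2 the Nur77 line averaged 40.7 ± 1.44 CPM (n = 3), with a log2 difference of -0.61 (adjusted p = 1.63e-06). At 5 h Nr4a1 averaged 4.89 ± 0.318 CPM in the Nur77 line and 2.88 ± 0.488 CPM in the GFP line (adjusted p = 0.113). The libraries of the lines did not overlap there. Without replicate 2 of the Nur77 line at 1 h, the 5 h log2 difference was 0.72 and was called (adjusted p = 3.51e-05). The construct's sequence is not given in the sources used here, so Nr4a1 does not check the labels. In the Nur77 line at 1 h, replicate 2 stood apart on the first principal component of log2 CPM, at 11.6 against -11.4 to -10.2 for the other 3. Comparisons between the lines at 1 h, and the changes with LPS that this library moved, are therefore also given without it.

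Between the lines, the members went in both directions. Il1a and Il1rn were lower in the Nur77 line at all 3 times and Il1b at 1 and 5 h, while Nlrp3 was higher at all 3 times and Casp1, Casp4 and Il18 were higher at 0 and 1 h. At 0 h, 4 of the 9 tested members were called higher in the Nur77 line than in the GFP line (Nlrp3, Casp1, Casp4 and Il18), where 20.2% of all tested genes were, and 2 were called lower (Il1a and Il1rn), where 19.7% of all tested genes were. At 1 h, Il1rap joined the higher genes and Il1b the lower, which gave 5 higher against a background of 26.5% and 3 lower against 24.8%. Without replicate 2 of the Nur77 line the 1 h counts were also 5 and 3, with Gsdmd in place of Il1rap, against 25.7% and 25.5% of all genes. At 0 h, leaving out that 1 h library gave 6 higher and 2 lower, with Il1rap and Gsdmd added, against 22.9% and 21.8%. By 5 h, Nlrp3 was the only member called higher, against 21.9% of all genes, and Il1a, Il1b, Il1rn and Casp1 were called lower, against 24.4%. The median log2 fold change of the 9 members was 0.23, 0.24 and -0.19 at 0, 1 and 5 h, beside 0.02, 0.01 and 0.00 over all genes. These comparisons are of bulk cultures, in which fewer expressing cells and less RNA per cell cannot be told apart.

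**Figure D1:**
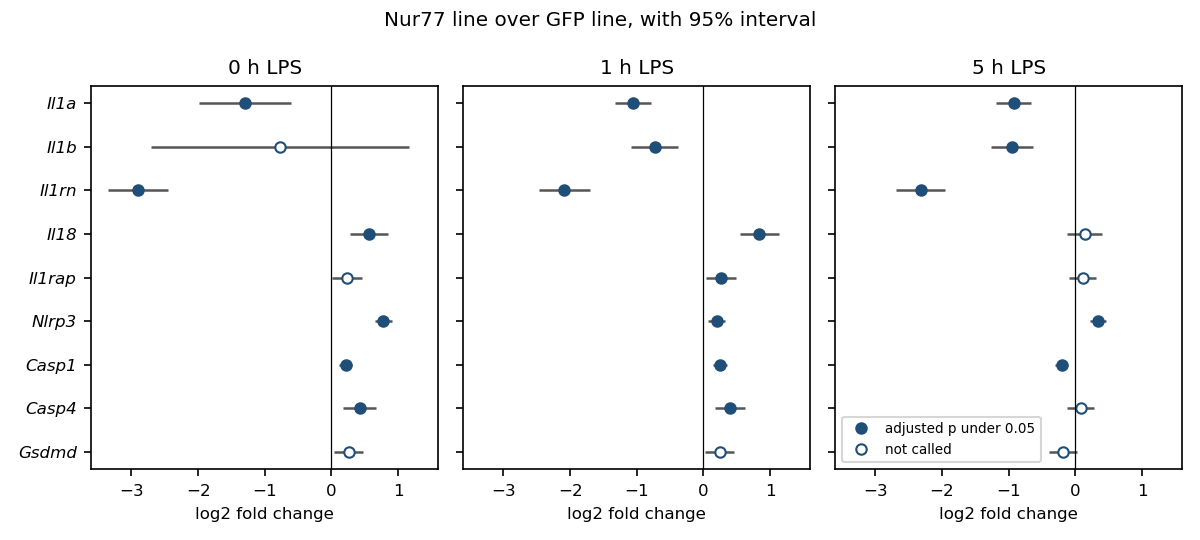
Log2 fold change of each tested member in the Nur77 line over the GFP line at 0, 1 and 5 h of LPS (x axis), with its 95% interval as a line; filled points were called at an adjusted p under 0.05 and open points were not. Il1rn lay between -2.90 and -2.09 at all 3 times, and Nlrp3 lay above 0 at each.

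Il1a was near the limit of detection before LPS and among the most abundant transcripts of the set afterwards. At 0 h it had 0.564, 0.618, 0.654 and 0.908 CPM in the Nur77 line, against 1.18, 2.87, 1.77 and 1.13 CPM in the GFP line. Every Nur77 library was below every GFP library, although the values rest on only 6.5 to 14 counts per Nur77 library, and the difference was 2.46-fold (log2 -1.30 ± 0.337, adjusted p = 0.00337). After 1 h Il1a had 57.1, 101, 66.4 and 63.6 CPM in the Nur77 line, against 148, 149, 155 and 146 CPM in the GFP line. The highest of the Nur77 values was replicate 2, the library that stood apart, and it too was under all GFP libraries. The log2 difference was -1.06 ± 0.131 with that library (adjusted p = 5.11e-07) and -1.26 without it (adjusted p = 4.1e-12). At 5 h the groups were tight, with 816, 798, 818 and 825 CPM in the Nur77 line and 1478, 1550, 1613 and 1550 CPM in the GFP line, a 1.90-fold lower level in the Nur77 line (log2 -0.93 ± 0.127, adjusted p = 1.91e-06).

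Il1b was almost silent before LPS in both lines. Its counts at 0 h were 0, 1, 0 and 7 in the Nur77 line and 3, 7.5, 3 and 3 in the GFP line, which overlapped and did not pass the test (adjusted p = 0.545, 95% interval of the log2 fold change -2.70 to 1.16). After 1 h Il1b had 22.3, 13.1, 24.6 and 29.4 CPM in the Nur77 line, against 31.1, 36.9, 41.5 and 37.5 CPM in the GFP line. Here replicate 2 was the lowest Nur77 library, not the highest as for Il1a. The log2 difference was -0.73 ± 0.171 (adjusted p = 0.00122), and -0.56 without replicate 2 (adjusted p = 0.00084). At 5 h Il1b had 465, 493, 504 and 468 CPM in the Nur77 line, against 913, 919, 955 and 939 CPM in the GFP line, which was 1.93-fold lower (log2 -0.95 ± 0.154, adjusted p = 2.47e-05). Il1a and Il1b thus stood at nearly the same fold difference at 5 h, with no overlap between the lines for either.

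An annotated noncoding transcript, Gm14023, overlaps Il1a on the opposite strand. The strand setting of the counting is not given in the sources used here, so reads of the pair cannot be told apart. Gm14023 averaged 91.3 ± 6.22 CPM in the Nur77 line and 188 ± 5.29 CPM in the GFP line at 5 h, which was 11.2% and 12.1% of the Il1a level. At 0 h, where Il1a itself had few counts, Gm14023 averaged 0.462 ± 0.162 CPM in the Nur77 line and 0.726 ± 0.350 CPM in the GFP line, or 67.4% and 41.8% of the Il1a level. The antisense transcript Il1bos, which overlaps Il1b, reached at most 1.51 CPM in any library.

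Il1rn showed the largest difference of the set at every time. Before LPS it had 6.53, 6.87, 6.30 and 5.25 CPM in the Nur77 line, against 38.6, 48.6, 46.4 and 52.1 CPM in the GFP line. The lines were far apart, with a 7.48-fold lower level in the Nur77 line (log2 -2.90 ± 0.217, adjusted p = 4.72e-10). After 1 h Il1rn had 21.7, 54.4, 24.7 and 24.7 CPM in the Nur77 line, against 138, 138, 130 and 125 CPM in the GFP line. Replicate 2 held more than the other 3 Nur77 libraries, and the log2 difference was -2.09 ± 0.185 with it (adjusted p = 6.57e-09) and -2.49 without it (adjusted p = 3e-19). At 5 h Il1rn had 124, 119, 122 and 117 CPM in the Nur77 line, against 595, 593, 608 and 610 CPM in the GFP line, 5.00-fold lower (log2 -2.32 ± 0.178, adjusted p = 5.45e-10). In the order of the 6 groups, the Nur77 line after 5 h of LPS (120 CPM) lay just below the GFP line after 1 h (132 CPM), with no overlap between their libraries, and the Nur77 line after 1 h (31.4 CPM) overlapped the untreated GFP line (46.4 CPM) through replicate 2 alone. Without that library, Il1rn in the Nur77 line at 1 h was 21.7 to 24.7 CPM, below all untreated GFP libraries. The 3 Il1rn transcripts in the table had nearly equal counts, with means of 2801, 2787 and 2784, so the start sites shown above could not be separated.

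**Figure D2:**
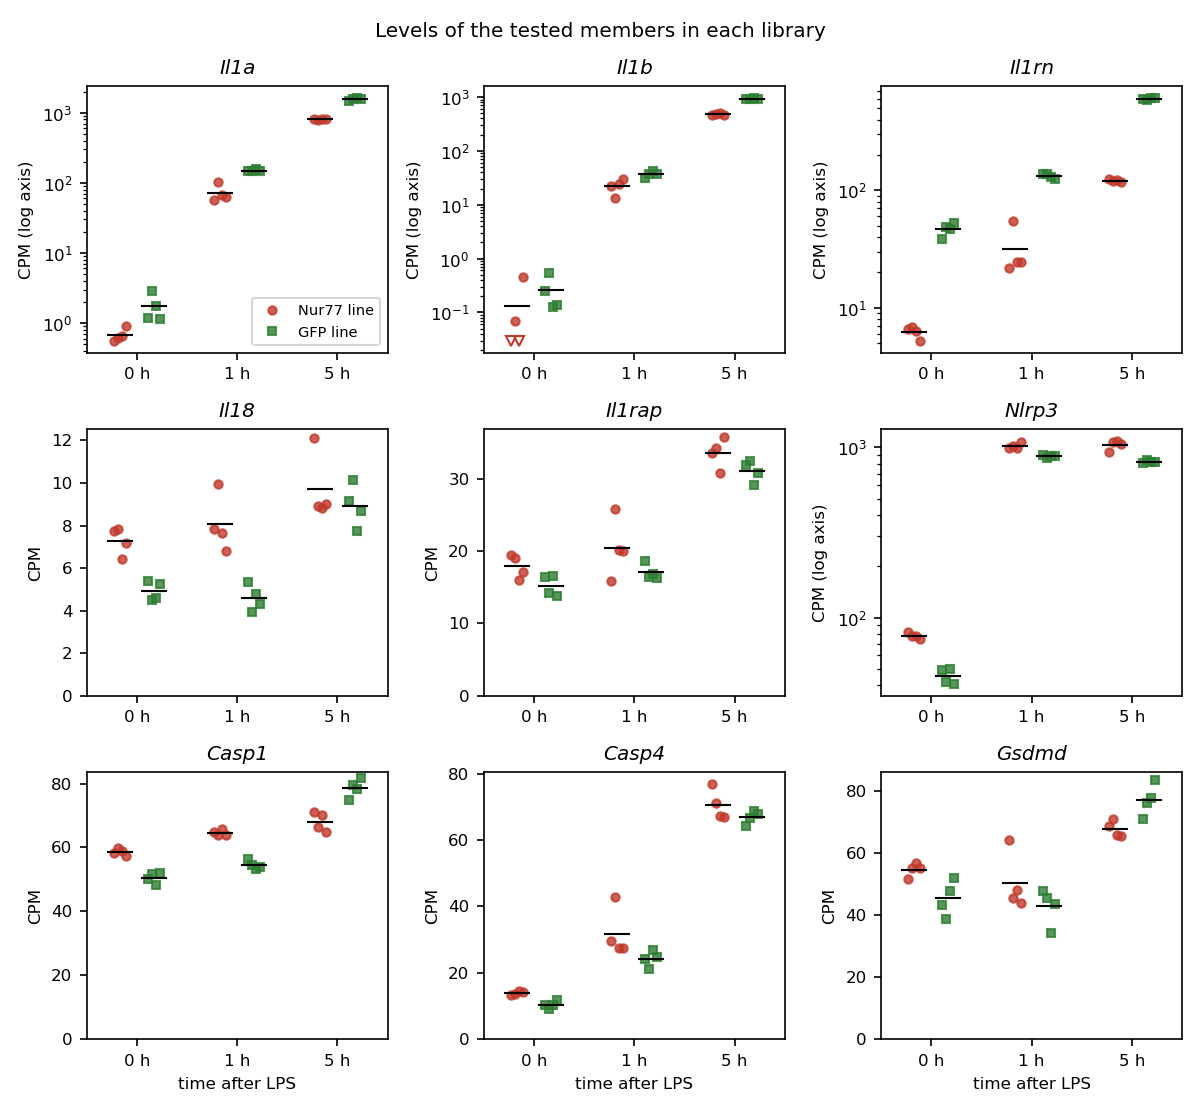
CPM of the 9 tested members in each library by time after LPS, with Nur77 libraries as red circles left of GFP libraries as green squares, and the mean of 4 as a bar. The axes of Il1a, Il1b, Il1rn and Nlrp3 are logarithmic, the others start at 0, and open triangles are libraries at 0. The Il1rn libraries of the Nur77 line at 5 h sit at 117 to 124 CPM, below the GFP libraries at 1 h.

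Because Il1rn differed by more than Il1a and Il1b, the balance of agonist to antagonist transcripts ran the other way from the agonists' own levels. Ratios were taken within each library after division by transcript length, and are given as a description. At 5 h the Il1b to Il1rn ratio was 5.51, 6.07, 6.07 and 5.88 in the Nur77 line, against 2.25, 2.27, 2.30 and 2.26 in the GFP line. Thus the Nur77 line had less Il1b and a higher ratio of Il1b to Il1rn. After 1 h the ratio was 1.504, 0.353, 1.46 and 1.74 in the Nur77 line and 0.330, 0.393, 0.469 and 0.440 in the GFP line, so that replicate 2 alone fell among the GFP libraries. The Il1a to Il1rn ratio was 6.82 ± 0.205 in the Nur77 line and 2.59 ± 0.0756 in the GFP line at 5 h. At 1 h it was 2.46 ± 0.392 in the Nur77 line and 1.14 ± 0.0619 in the GFP line, with no overlap. Between the agonists themselves the lines were close at 5 h, with an Il1a to Il1b ratio of 1.16 ± 0.0543 in the Nur77 line and 1.14 ± 0.0229 in the GFP line. At 1 h the same ratio was 1.76, 5.31, 1.86 and 1.49 in the Nur77 line and 3.28, 2.78, 2.57 and 2.68 in the GFP line. There 3 of the Nur77 libraries lay below all GFP libraries, and replicate 2 lay above them.

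**Figure D3:**
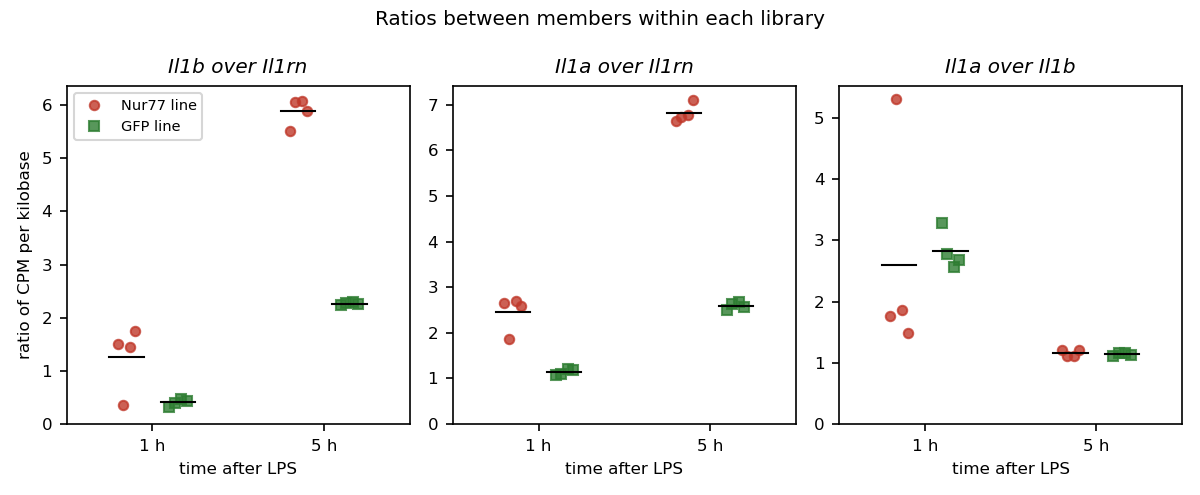
Ratios of CPM per kilobase of transcript between Il1b and Il1rn, Il1a and Il1rn, and Il1a and Il1b at 1 and 5 h of LPS (x axis), with Nur77 libraries as red circles left of GFP libraries as green squares and the mean of 4 as a bar. At 5 h the Il1b to Il1rn ratio is 5.51 to 6.07 in the Nur77 line and 2.25 to 2.30 in the GFP line, while the Il1a to Il1b ratios overlap at 5 h.

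Il18, the other precursor cut by caspase-1, moved in the opposite direction and at a low level. At 0 h it had 7.73, 7.83, 6.42 and 7.20 CPM in the Nur77 line, against 5.40, 4.51, 4.59 and 5.24 CPM in the GFP line, and was called higher (log2 0.56 ± 0.138, adjusted p = 0.00189). At 1 h it averaged 8.06 ± 1.34 CPM in the Nur77 line and 4.60 ± 0.602 CPM in the GFP line (log2 0.84 ± 0.141, adjusted p = 2.33e-05), and the log2 difference was 0.74 without replicate 2. At 5 h the libraries overlapped, at 8.84 to 12.1 CPM in the Nur77 line and 7.73 to 10.2 CPM in the GFP line (log2 0.14, 95% interval -0.12 to 0.40, adjusted p = 0.38). Bco2, a carotenoid-cleaving enzyme gene, overlaps Il18 on the opposite strand and averaged 4.09 ± 0.759 CPM in the Nur77 line and 5.14 ± 0.619 CPM in the GFP line at 0 h.

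Il1rap differed little between the lines. At 0 h it had 16.1 to 19.4 CPM in the Nur77 line and 13.7 to 16.5 CPM in the GFP line, and the log2 difference of 0.23 ± 0.108 missed the threshold (adjusted p = 0.0893). That 0 h difference was called without replicate 2 of the Nur77 line at 1 h (log2 0.23, adjusted p = 0.0337). It was also called with the mean over the transcripts of Il1rap (log2 0.33, adjusted p = 0.0457). At 1 h Il1rap was called higher (log2 0.27 ± 0.107, adjusted p = 0.0414), but the libraries overlapped and the call was lost under many alternatives. Without replicate 2 the log2 difference was 0.14 (adjusted p = 0.239), and with the mean over its transcripts it was 0.04 (adjusted p = 0.803). At 5 h it averaged 33.6 ± 2.06 CPM in the Nur77 line and 31.0 ± 1.48 CPM in the GFP line (adjusted p = 0.379). Counts were given for 5 Il1rap transcripts, among them NM_008364, with 1710 coding bases, and NM_134103, with 1080. NM_001159318 and NM_001159317 have 2055 and 1920 coding bases. Their mean counts of 134 and 133 were close to the 133 of NM_134103. The count of NM_134103 over that of NM_008364 was 0.327 ± 0.0127 in the Nur77 line and 0.403 ± 0.0207 in the GFP line at 5 h. The libraries did not overlap there. At 0 h the ratio was 0.360 ± 0.0247 and 0.328 ± 0.0452 in the Nur77 and GFP lines, with overlap. Transcripts of a gene share reads in this table, so this ratio was not tested. The antisense gene Gm20319 overlaps the 3′ end of the gene and stood at 1.04 to 3.92 CPM.

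Nlrp3, the inflammasome sensor, was higher in the Nur77 line at every time, by most before LPS. It had 82.1, 77.8, 77.9 and 74.8 CPM in the Nur77 line, against 49.5, 41.9, 49.8 and 40.9 CPM in the GFP line at 0 h. That was 1.72-fold higher with no overlap (log2 0.78 ± 0.0635, adjusted p = 2.62e-10). After 1 h Nlrp3 had 992, 1014, 992 and 1078 CPM in the Nur77 line, against 907, 863, 890 and 893 CPM in the GFP line, a smaller difference of log2 0.20 ± 0.0601 (adjusted p = 0.00791) that was also 0.20 without replicate 2. This call was lost when only the 8 libraries compared were fitted (adjusted p = 0.0664). At 5 h it had 944, 1076, 1086 and 1048 CPM in the Nur77 line, against 809, 845, 816 and 816 CPM in the GFP line (log2 0.34 ± 0.0601, adjusted p = 4.89e-05). The 2 Nlrp3 transcripts with a coding sequence had means of 10939 and 10922 counts and could not be separated.

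Pycard, the adaptor that links NLRP3 to caspase-1, was not detectable at this depth. Its counts summed to 8.5 over all 24 libraries, with counts in 7 of them and at most 2.5 in any. A floor of 3 counts corresponds to 0.113 to 0.373 CPM, depending on the library. No library reached 3 counts before rounding. The 2.5 counts, in replicate 3 of the Nur77 line at 5 h, rounded up to 3 (0.223 CPM). No fold change is given for it.

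Casp1, the inflammasome protease, differed by small amounts in opposite directions. At 0 h it had 58.4, 59.8, 59.0 and 57.3 CPM in the Nur77 line, against 50.1, 51.6, 48.3 and 52.0 CPM in the GFP line (log2 0.22 ± 0.0482, adjusted p = 0.00082). After 1 h Casp1 averaged 64.7 ± 0.977 CPM in the Nur77 line and 54.5 ± 1.34 CPM in the GFP line (log2 0.25 ± 0.0482, adjusted p = 0.00014), and the log2 difference was also 0.25 without replicate 2. At 5 h the order was turned, with 71.0, 66.3, 70.2 and 64.7 CPM in the Nur77 line and 74.8, 79.5, 78.4 and 81.8 CPM in the GFP line (log2 -0.21 ± 0.0474, adjusted p = 0.00085). The libraries of the lines did not overlap at any of the 3 times.

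Casp4, which encodes the LPS-binding caspase-11, was higher in the Nur77 line before LPS and at 1 h. It had 13.4, 13.5, 14.6 and 14.1 CPM in the Nur77 line, against 10.4, 9.10, 10.2 and 11.7 CPM in the GFP line at 0 h (log2 0.43 ± 0.12, adjusted p = 0.00608). At 1 h it had 29.5, 42.8, 27.4 and 27.5 CPM in the Nur77 line, against 21.1 to 26.7 CPM in the GFP line. Replicate 2 was the high Nur77 library, and the log2 difference was 0.40 ± 0.108 with it (adjusted p = 0.00324) and 0.23 without it (adjusted p = 0.0162). The call at 1 h was lost when only the 8 libraries compared were fitted (adjusted p = 0.0554). At 5 h the libraries overlapped, at 67.0 to 77.0 CPM in the Nur77 line and 64.4 to 68.8 CPM in the GFP line (adjusted p = 0.542).

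Gsdmd, the pore-forming substrate of both caspases, was not called between the lines. It averaged 54.6 ± 2.19 CPM in the Nur77 line and 45.5 ± 5.72 CPM in the GFP line at 0 h (log2 0.26 ± 0.105, adjusted p = 0.0517). At 1 h the log2 difference was 0.24 ± 0.106 (adjusted p = 0.0581), and without replicate 2 it was 0.29 and was called (adjusted p = 0.0314). At 5 h it averaged 67.7 ± 2.53 CPM in the Nur77 line and 77.1 ± 5.13 CPM in the GFP line, with no overlap (log2 -0.19 ± 0.103, adjusted p = 0.144). The 0 h value lay close to the threshold and was called with the DESeq2 Wald test (adjusted p = 0.0423), and the 5 h value was called when only the 8 libraries compared were fitted (adjusted p = 0.00563).

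LPS raised the members in both lines, and none was called lower in any of the 6 comparisons of times. At 1 h against 0 h, 6 of 9 were called higher in the Nur77 line, where 22.5% of all genes were, and none lower, where 21.8% were. In the GFP line 5 were called higher against a background of 9.74%, and none lower against 7.63%. Il1a, Il1b, Il1rn, Nlrp3 and Casp4 were called in both lines, and Casp1 in the Nur77 line, by log2 0.14 ± 0.0479 (adjusted p = 0.0189). That Casp1 call was lost when only the 8 libraries compared were fitted (adjusted p = 0.0867). Without replicate 2 the Nur77 line also had 6 called higher, against 19.2% of all genes. At 5 h against 0 h all 9 tested members were called higher in each line, where 32.5% of all genes were higher and 34.1% lower in the Nur77 line, and 30.6% higher and 31.9% lower in the GFP line. From 1 to 5 h, 6 were called higher in the Nur77 line (background 26.9% higher, 28.6% lower) and 8 in the GFP line (background 27.5% higher, 27.7% lower). Nlrp3 was called in neither line over that interval. Casp1 was called in the GFP line (log2 0.53) and not in the Nur77 line (log2 0.07, adjusted p = 0.194). Il18 was called in the GFP line (log2 0.99) and missed the threshold in the Nur77 line (log2 0.29, adjusted p = 0.0583), where it was called without replicate 2 (log2 0.40, adjusted p = 0.00799) and 7 members were, against 29.3% of all genes. The difference between the lines over that interval was not tested. The median log2 fold change of the members at 5 h against 0 h was 2.34 in the Nur77 line and 2.69 in the GFP line, beside -0.03 and -0.02 over all genes in the Nur77 and GFP lines.

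The members differed in size and timing. Nlrp3 was near its 5 h level by 1 h, at 13.04-fold its 0 h level in the Nur77 line and 19.5-fold in the GFP line, with 13.3-fold in the Nur77 line and 18.1-fold in the GFP line at 5 h. Il1a and Il1b went on rising: at 5 h Il1a stood 1164-fold above 0 h in the Nur77 line (log2 10.19 ± 0.221) and 901-fold in the GFP line (log2 9.82 ± 0.202). The Il1b change at 5 h was log2 11.73 ± 0.321 in the Nur77 line and 11.90 ± 0.298 in the GFP line. It rests on 8 and 16.5 counts summed over the 0 h libraries of the Nur77 and GFP lines, so its size is loosely fixed. In the Nur77 line 1 library held 7 of the 8 counts. Over the alternative settings the Il1b change ran from log2 11.26 to 13.96 in the Nur77 line and 11.62 to 12.48 in the GFP line. Il1rn rose 19.3-fold in the Nur77 line and 12.9-fold in the GFP line by 5 h. Its 1 h change in the Nur77 line was 5.00-fold with replicate 2 and 3.79-fold without it, beside 2.84-fold in the GFP line. Casp4 rose in steps, to 2.28-fold at 1 h and 5.07-fold at 5 h in the Nur77 line, and 2.32-fold and 6.44-fold in the GFP line, and its 1 h value in the Nur77 line was 2.02-fold without replicate 2. Casp1, Gsdmd, Il18 and Il1rap changed by at most 2.04-fold by 5 h. Per kilobase of transcript, the highest members were Casp1 at 0 h (39.2 ± 0.696 CPM per kb in the Nur77 line, 33.7 ± 1.12 in the GFP line), Nlrp3 at 1 h (259 ± 10.3 in the Nur77 line, 226 ± 4.70 in the GFP line) and Il1a at 5 h (412 ± 5.83 in the Nur77 line, 784 ± 27.9 in the GFP line).

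**Figure D4:**
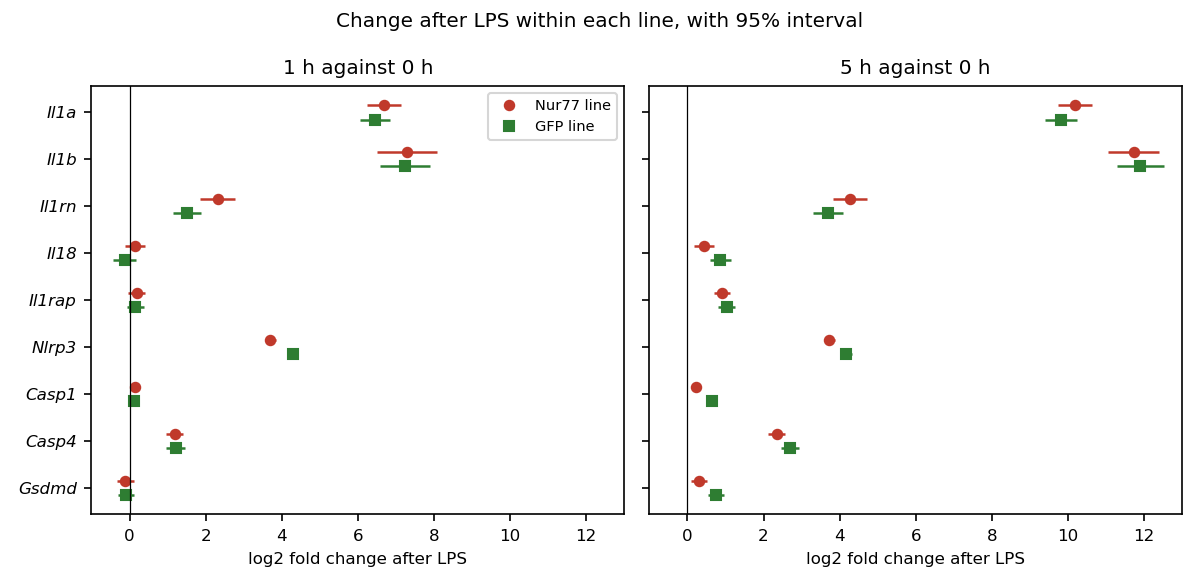
Log2 fold change of each tested member after 1 h and 5 h of LPS against 0 h (x axis), with its 95% interval as a line; red circles above are the Nur77 line and green squares below are the GFP line. Il1a, Il1b and Il1rn continue upward from 1 to 5 h, while Nlrp3 holds its 1 h level, at 13.04-fold and 13.3-fold in the Nur77 line.

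Whether the lines differed in their response to LPS was tested as an interaction, the log2 change in the Nur77 line minus that in the GFP line. At 1 h, 1 member was called, with a smaller response in the Nur77 line, where 0.549% of all genes were called lower, and none was called with a larger response, where 0.63% were. This was Nlrp3, whose response was smaller by log2 0.58 ± 0.0873 (adjusted p = 0.00041), from a higher level at 0 h, and by the same log2 0.58 without replicate 2. At 5 h, 2 were called with a smaller response, where 5.13% of all genes were called lower, and none with a larger, where 2.81% were. Casp1 had a log2 interaction of -0.42 ± 0.0676 (adjusted p = 0.00015), and Nlrp3 one of -0.44 ± 0.0872 (adjusted p = 0.00162). Il1a and Il1b had few counts before LPS. The interval of Il1a was -0.38 to 1.12 at 5 h. That of Il1b was -2.75 to 2.40 at 5 h and -1.17 to 1.26 at 1 h, from the same 0 h counts. Because the SE is derived from the fold change and F, the 5 h interval of Il1b is not read as its precision. The reason for its greater width was not tested. Il1rn had an interaction of 0.58 ± 0.277 at 5 h (adjusted p = 0.229), so its lower level in the Nur77 line was present before LPS, and a larger rise in that line was not called. Without replicate 2 of the Nur77 line at 1 h, Il1rn (0.58, adjusted p = 0.00042), Casp4 (-0.34, adjusted p = 0.0287) and Gsdmd (-0.44, adjusted p = 0.0396) were called as well at 5 h, 5 members in all. In that setting 1673 of all 12213 genes were called in either direction, against 970 with the library.

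Other ligands, receptors and decoys of the IL-1 family were mostly scarce in these cells. Of 14 listed genes 6 passed the filter on low counts, and Il36b, Il36rn and Il1f10 were at 0 in every library. Il1r1, the signalling receptor for both IL-1 cytokines, had 45.5 counts over all 24 libraries, and the decoy receptor Il1r2 had 2.5. Between the lines 3 were called higher and none lower in the Nur77 line at 0 h, 2 higher and none lower at 1 h, and none higher and 2 lower at 5 h. The shares of all tested genes called higher and lower were 20.2% and 19.7% at 0 h, 26.5% and 24.8% at 1 h, and 21.9% and 24.4% at 5 h. Il18rap, the accessory chain of the IL-18 receptor, averaged 42.2 ± 0.839 CPM in the Nur77 line and 23.9 ± 0.882 CPM in the GFP line at 0 h (log2 0.82 ± 0.0893, adjusted p = 4.75e-08). At 5 h it stood at 60.0 ± 2.33 CPM in the Nur77 line and 56.3 ± 0.704 CPM in the GFP line, and the 5 h interaction was called (-0.73, adjusted p = 0.00031). Its partner chain Il18r1 reached at most 0.364 CPM in any library. Il1rl1, the receptor for IL-33, was higher in the Nur77 line at 0 h (65.1 ± 2.54 CPM, against 42.1 ± 1.83 CPM in the GFP line) and lower at 5 h (139 ± 7.48 CPM, against 182 ± 5.75 CPM in the GFP line), with an interaction of -1.02 (adjusted p = 1.04e-05). Il33 itself was at most 0.269 CPM in any library up to 1 h, and at 5 h had 5.61, 6.55, 6.31 and 5.74 CPM in the Nur77 line against 15.8, 16.5, 16.3 and 12.3 CPM in the GFP line (log2 -1.34 ± 0.189, adjusted p = 4e-06). Sigirr, an inhibitory receptor of the family, was called higher at 0 h (9.37 ± 1.06 CPM in the Nur77 line, 7.17 ± 0.654 CPM in the GFP line, adjusted p = 0.0362).

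The signalling chain that IL-1 and Toll-like receptors share held 14 listed genes, of which 13 were tested. The Nur77 line was higher for 4 and lower for 1 of them at 0 h, for 5 and 2 at 1 h, and for 3 and 1 at 5 h, by the same test. All tested genes gave 20.2% higher and 19.7% lower at 0 h, 26.5% and 24.8% at 1 h, and 21.9% and 24.4% at 5 h. Without replicate 2 of the Nur77 line at 1 h, 3 were higher and 3 lower at 5 h, against 24.8% and 26.8% of all genes. Irak3, an inhibitory kinase of the family, had 39.8, 73.2, 52.4 and 35.5 CPM in the Nur77 line at 1 h, against 26.4, 23.8, 23.7 and 26.1 CPM in the GFP line (log2 1.01 ± 0.134, adjusted p = 1.38e-06). Replicate 2 was its highest library, and the log2 difference was 0.78 without it (adjusted p = 2.05e-08). Tollip, an adaptor that restrains IRAK signalling, averaged 105 ± 8.75 CPM in the Nur77 line and 140 ± 4.69 CPM in the GFP line at 1 h (log2 -0.41 ± 0.0563, adjusted p = 1.44e-06), and the log2 difference was -0.39 without replicate 2. Irak2, which sustains late signalling, averaged 231 ± 6.60 CPM in the Nur77 line and 315 ± 5.76 CPM in the GFP line at 5 h (log2 -0.45 ± 0.0725, adjusted p = 1.46e-05). Tab2, a partner of the kinase TAK1, averaged 270 ± 51.2 CPM in the Nur77 line and 192 ± 7.28 CPM in the GFP line at 1 h (log2 0.49 ± 0.0824, adjusted p = 2.23e-05), and the log2 difference was 0.40 without replicate 2 (adjusted p = 4.51e-05).

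Among other inflammasome sensors and regulators 20 of 23 were tested, and they went in both directions. Called genes numbered 7 higher and 3 lower at 0 h, 8 and 6 at 1 h, and 4 and 6 at 5 h, each for the Nur77 line over the GFP line. Against all tested genes, at 20.2% higher and 19.7% lower at 0 h, 26.5% and 24.8% at 1 h, and 21.9% and 24.4% at 5 h, the counts of lower genes and the 5 h count of higher genes were near the background. Without replicate 2 of the Nur77 line at 1 h, 5 were higher and 6 lower at 5 h, against 24.8% and 26.8% of all genes. Gbp2, an interferon-induced GTPase that acts on bacterial LPS, had 18.6, 19.2, 16.9 and 19.2 CPM in the Nur77 line at 5 h, against 76.3, 89.3, 88.5 and 84.4 CPM in the GFP line (log2 -2.19 ± 0.119, adjusted p = 6.51e-14). Panx1, a membrane channel that releases ATP, averaged 5.17 ± 1.04 CPM in the Nur77 line and 12.5 ± 1.55 CPM in the GFP line at 5 h (log2 -1.27 ± 0.120, adjusted p = 2.89e-09). Pstpip1, a cytoskeletal protein that binds pyrin, was lower in the Nur77 line at all 3 times, with 55.3 ± 3.16 CPM in the Nur77 line and 94.5 ± 7.43 CPM in the GFP line at 0 h (log2 -0.77 ± 0.0902, adjusted p = 1.44e-07). Naip5, a sensor of flagellin, was higher at 0 h with 29.0 ± 2.20 CPM in the Nur77 line and 15.1 ± 0.591 CPM in the GFP line (log2 0.94 ± 0.115, adjusted p = 2.88e-07), but the Naip genes are near copies of each other, and which of them the reads came from is uncertain.

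Of the other caspases, gasdermins and genes of membrane rupture 10 of 13 were tested, and Gsdmc was at 0 in every library. Calls for the Nur77 line over the GFP line were 6 higher and 2 lower at 0 h, 7 and 2 at 1 h, and 4 and 3 at 5 h. Over all tested genes the higher and lower shares were 20.2% and 19.7% at 0 h, 26.5% and 24.8% at 1 h, and 21.9% and 24.4% at 5 h. Without replicate 2 of the Nur77 line at 1 h, 6 were called higher and 3 lower at 0 h, against 22.9% and 21.8% of all genes. In that setting the counts were 5 and 2 at 1 h (25.7% and 25.5% of all genes) and 5 and 3 at 5 h (24.8% and 26.8%). Serpinb9, an inhibitor of granzyme B, had 37.1, 37.1, 36.2 and 37.7 CPM in the Nur77 line at 5 h, against 13.9, 16.1, 15.2 and 16.9 CPM in the GFP line (log2 1.26 ± 0.0924, adjusted p = 2.7e-11). Ripk3, the kinase of necroptosis, averaged 59.5 ± 3.13 CPM in the Nur77 line and 29.8 ± 1.83 CPM in the GFP line at 5 h (log2 1.00 ± 0.0886, adjusted p = 1e-09), and was higher at 0 h and 1 h as well. Casp8, which can cut IL-1 beta and gasdermin D without caspase-1, was called higher at all 3 times, with 115 ± 4.03 CPM in the Nur77 line and 94.9 ± 1.14 CPM in the GFP line at 5 h (log2 0.28 ± 0.0907, adjusted p = 0.0145). The 1 h log2 differences of Pstpip1, Ripk3 and Casp8 without replicate 2 were -0.63, 0.68 and 0.28, and all 3 were called.

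Genes whose log2 CPM followed the members most closely over the 24 libraries were picked among 9458 tested genes that reached 10 CPM in a group. The correlations are given as a description, since all genes share the same libraries. Over all tested genes, the first principal component followed the time of LPS and held 48.1% of the variance. The second separated the lines and held 26.5%. Il1a was closest to Pip5k1a (Pearson r = 0.9945), Il1b (0.9924) and Lif (0.9897). Il1b was closest to Il1a, Sertad2 (0.9869) and Gm14023 (0.9857), the transcript that overlaps Il1a. Il1rn was closest to Frmd6 (0.9874), Slc9a4 (0.9835) and Hsp90aa1 (0.9803), and like Il1rn, Frmd6 was low in the Nur77 line, with 13.5 ± 1.08 CPM in the Nur77 line and 41.2 ± 2.37 CPM in the GFP line at 5 h. Nlrp3 was closest to Pim1 (0.9951), Sgms1 (0.9946) and Pde4b (0.9945). Pde4b had 31.7 ± 0.946 CPM in the Nur77 line and 16.8 ± 1.64 CPM in the GFP line at 0 h, and 368 ± 29.2 CPM in the Nur77 line and 349 ± 12.6 CPM in the GFP line at 1 h. Between members, Il1rn was less close to Il1a (0.8442) and Il1b (0.823) than those were to each other.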

How the data were processed

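RNA sequencing libraries of the KAPA mRNA HyperPrep kit were analysed, 4 per group. Per the submitters' processing notes, CASAVA 1.8.2 and HISAT2 2.1.0 were used with the mouse build mm10 (GRCm38). No source used here gives the counting tool, strand setting or annotation. Estimated counts were deposited for 42361 RefSeq transcripts, not normalized, and all were multiples of 0.5. Transcripts were mapped to symbols through RefSeq (42203) and GENCODE (65), and 93 kept their identifiers. Isoforms repeat reads, so each gene took its transcript of highest mean. Counts were rounded to whole numbers, filtered with filterByExpr by group, and scaled by TMM (factors 0.896 to 1.14). A model of 6 group means over all 24 libraries (18 residual degrees of freedom, common biological coefficient of variation 0.0978) was fitted with edgeR 4.0.16 in R 4.3.3 (robust glmQLFit, glmQLFTest, two-sided). P-values were adjusted over 12213 genes for each of the 11 comparisons, and SE is the absolute log2 fold change over the square root of F.

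Depth and the number of libraries set the precision. The floor of 3 counts and the intervals cover counting error or spread between libraries only. The labels leave it unsaid whether replicates were separate cultures, so p-values reflect only how these libraries vary, possibly for technical reasons. Promoters are from RefSeq, matched by symbol.

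The members, gene lists, motifs and alternatives were chosen with earlier results of these data known. Named genes were the 10 members, up to 4 called genes per list with the smallest adjusted p between lines, the 3 genes most like Il1a, Il1b, Il1rn and Nlrp3, and Nr4a1 once. A gene that this rule picked is not reported here. The genes at 0 were named, and Il1r1, Il1r2, Il18r1, Gm14023 and other overlapping genes after their values were seen. Other settings tried were the mean over transcripts, a replicate block, fits restricted to the groups compared, every gene kept or only those at 1 CPM in 4 libraries, the size factors and the Wald test of DESeq2 1.42.0, and each library left out singly.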

Additional observations from a re-analysis of the deposited data

Results flagged for a closer look

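Among 54 groups of 4 libraries looked at for the tested members, 4 had a library far from the other 3, measured as its gap to the nearest library over the range of the group. Chance gives about 1 in 20 such groups. In the Nur77 line at 1 h this was replicate 2 for both Il1rn (54.4 CPM, gap 0.908 of the range) and Casp4 (42.8 CPM, 0.862). In the Nur77 line at 0 h it was replicate 4 for Il1b, whose 0.454 CPM rests on 7 counts (0.849). In the Nur77 line at 5 h it was replicate 1 for Il18 (12.1 CPM, 0.944).

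The response to LPS differed between the lines for 2 members in the test of the interaction (edgeR, Nur77 minus GFP line). For Nlrp3 the log2 difference was -0.58 at 1 h (adjusted p = 0.00041) and -0.44 at 5 h (adjusted p = 0.00162). For Casp1 it was -0.42 at 5 h (adjusted p = 0.00015).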

How the results depend on the processing

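No value of a member changed its direction past the threshold under any alternative. Over 3069 recomputed values of the 9 tested members, 3014 kept their call, 37 gained one and 18 lost one. Most of the lost calls were those of Il1rap at 1 h between the lines. With only the groups compared, Il1rap, Casp4 and Nlrp3 lost their calls between the lines at 1 h (adjusted p = 0.161, 0.0554 and 0.0664). That setting called 5 members in place of 2 in the 5 h interaction. The DESeq2 test called 2 members in place of 1 in the 1 h interaction, with Il1rn added (0.81, adjusted p = 0.0435). Leaving out each library in turn gave 1 to 2 members in the 1 h interaction and 2 to 5 in the 5 h interaction. Over all genes, only the groups compared gave 3498 calls for 1 h against 0 h in the Nur77 line (5406 over all libraries). The 1 h interaction had 144 calls, and 491 with DESeq2, 95 without a filter, 47 with only the groups compared, 90 with a replicate block and 74 to 1600 without each library in turn. The 5 h interaction had 970 calls, 2086 with only the groups compared and 726 to 1673 without each library. The lowest counts were without replicate 4 of the GFP line at 0 h in the 1 h interaction, and the highest without replicate 1 of the Nur77 line at 1 h there and without replicate 2 of that group in the 5 h interaction. The cause was not tested. With a replicate block, members called stayed at 6, 8 and 5 between the lines at 0, 1 and 5 h, and at 1 and 2 in the interactions. Deviations of log2 CPM from the group mean correlated at -0.20 to 0.17 between same-numbered libraries of the lines. DESeq2 size factors moved the median of all genes by less than 0.1 (log2). Depth limits Il1a, Il1b and Il33 at 0 h and Pycard throughout.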
